A study of Mus musculus with 6 samples.

Results

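The genes described here make, check and dispose of proteins in the endoplasmic reticulum (ER): its stress sensors, its chaperones, its disulfide-forming enzymes and the machinery of ER-associated degradation. Members were taken from a list of 35 genes by the platform's gene symbol, with 1 probe set per symbol. Of these, 32 were measured among 19505 genes, and Mbtps2, Manf and Pdia4 were not analysed here. Expression came from 393P cells, a mouse lung adenocarcinoma line that the labels also spell 9393P. One group was stably transfected to overexpress AC9 and the other with an empty VECTOR, and each had 3 Affymetrix Clariom S arrays. Both were kept in RPMI and fetal bovine serum; jetPRIME was the transfection reagent, and transfectants were selected with puromycin or G418. Neither the drug of each group, nor whether a group was 1 clone or a pool, nor whether its 3 samples were separate cultures is given in the sources used here. Such differences cannot be told apart from AC9, and the p-values take in no more than the variation among these arrays, part or all of which may be technical.

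Secreted and membrane proteins enter the ER through the Sec61 channel and are folded there by chaperones of the HSP70, HSP90 and lectin types, while oxidoreductases form and exchange their disulfide bonds. Proteins that stay misfolded are recognised, pulled back across the membrane and sent to the proteasome. When unfolded protein builds up, IRE1 (encoded by Ern1), PERK (Eif2ak3) and ATF6 start the unfolded protein response. Its transcription factors, the spliced form of XBP1 and the cleaved form of ATF6, raise the genes of chaperones and of degradation. Transcript arrays report neither the splicing of Xbp1 nor the cleavage of ATF6.

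Values are log2 intensities, on which a difference of 1 is a doubling. Adcy9, for which RefSeq lists the synonym AC9, read 6.78, 6.60 and 6.82 in AC9 cells, against 6.12, 6.09 and 6.15 in VECTOR cells. It rose 1.53-fold (log2 change 0.61, limma adjusted p 0.00264), a modest rise from a VECTOR mean just above the bound of 6.06 described next. Of 7 epithelial markers, 6 lay in both groups above 6.06, the 90th percentile of the negative control probe sets, whereas of 6 lung lineage markers only Aqp5 and Hopx did, and Nkx2-1 and Sftpc did not. Some markers changed between the groups: Aqp5 by -1.45 (limma adjusted p 2.23e-05), Krt19 by -0.47 (0.00873), Cldn4 by 0.50 (0.0189) and Epcam by 0.44 (0.0293), and the part of this in the members' changes was not tested. None of 5 leukocyte and 5 endothelial markers and 1 of 5 fibroblast markers lay above it. All 32 members lay above that bound on every array, between 6.59 and 13.17. Within a group, the members' arrays varied with a median SD of 0.0843, compared with 0.138 over all genes and 0.110 over the 9916 genes above the bound on every array.

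The chaperone genes Hspa5, Hsp90b1, Hyou1 and Canx, the transcription factor genes Atf6 and Xbp1 and the degradation adaptor gene Sel1l were higher in AC9 cells, while Os9, Edem2, Sdf2l1 and Eif2ak3 were lower. Past an adjusted p of 0.05 in limma, 7 of 32 members (21.9%) were higher in AC9 cells, where 8.26% of all genes were, and 4 (12.5%) were lower, where 9.29% of all genes were. Among the 9916 genes above the bound on every array, a background looked at after the data were seen, the shares were 13.3% higher and 14.9% lower. In this fit, the members' share of higher genes stood above both backgrounds, and their share of lower genes lay near them. The former rests on 7 genes, not all of them firm, and its difference from either background was not tested. The median change over the 32 members was 0.11, compared with 0.02 over all genes, and 19 had a positive sign. The arrays of the groups did not overlap, with AC9 above, for 11 members (34.4%) against 17.3% of all genes, and with AC9 below for 6 (18.8%) against 17.7%. Among the 9916 brighter genes those shares were 25.2% and 27.4%.

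The calls differed in how firmly they stood. Atf6, Xbp1, Hspa5, Hsp90b1 and Os9 kept theirs whichever array was left out. Sel1l lost its call without AC9 replicate 1 or 2, and Edem2 without VECTOR replicate 1 or AC9 replicate 1 or 3. Canx and Sdf2l1 kept theirs only when VECTOR replicate 3 was the array left out, and Hyou1 and Eif2ak3 lost theirs whichever array was left out. The count of higher members was 4 without AC9 replicate 1 and 4 without AC9 replicate 2. The count of lower members was 1 without VECTOR replicate 1, AC9 replicate 1 or AC9 replicate 3, and 2 without VECTOR replicate 2 or AC9 replicate 2.

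**Figure D1:**
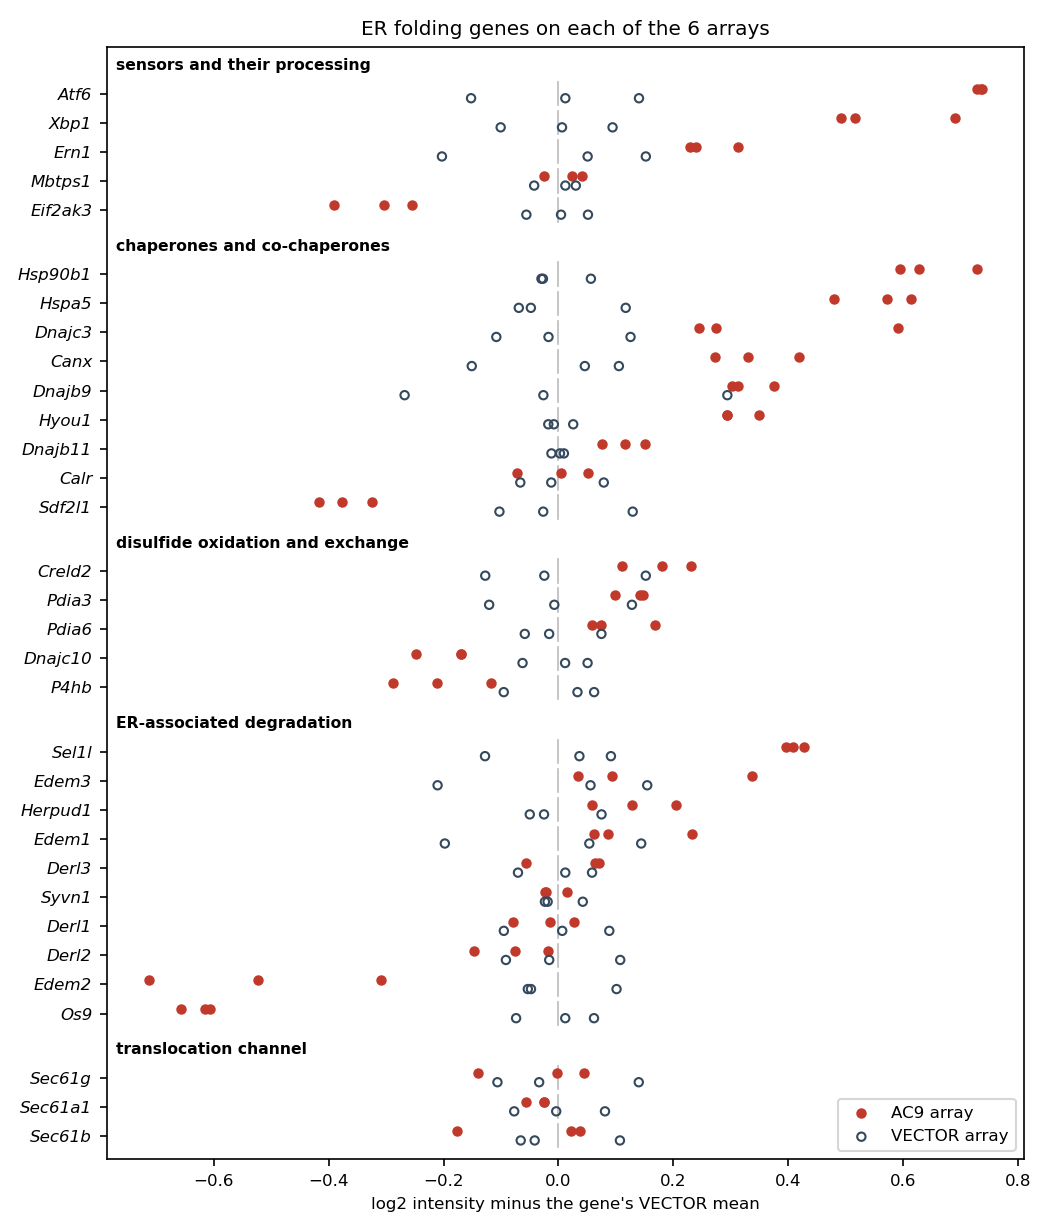
Log2 intensity of the 32 measured genes on each array, as the difference from the gene's VECTOR mean (horizontal axis), by class and ordered by change; filled points are AC9 arrays and open points VECTOR arrays. The AC9 points of Atf6, Xbp1, Hsp90b1, Hspa5 and Sel1l lie to the right of all VECTOR points, those of Os9, Edem2, Sdf2l1 and Eif2ak3 to the left, and those of the Sec61 genes among them.

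Among the sensors and the factors they act through, 2 of 5 measured genes (40%) rose and 1 (20%) fell. Of all genes, 8.26% were higher and 9.29% lower. Atf6, the membrane-held factor that is freed by proteolysis in the Golgi, read 11.19, 11.19 and 11.18 in AC9 cells, against 10.46, 10.30 and 10.59 in VECTOR cells. The 3 AC9 arrays were almost the same and lay above every VECTOR array. Atf6 rose 1.66-fold, a log2 change of 0.73 (SE 0.10, limma adjusted p 0.00131), the largest change among the members and position 327 of 19505 genes from the largest rise downward.

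Xbp1, whose mRNA is spliced by IRE1, read 11.31, 11.33 and 11.50 in AC9 cells and 10.82, 10.71 and 10.91 in VECTOR cells. It rose 1.48-fold (log2 change 0.57, SE 0.10, adjusted p 0.00491), and no VECTOR array reached the lowest AC9 array. Ern1, the kinase and endoribonuclease that does that splicing, read 10.57, 10.58 and 10.65 in AC9 cells, against 10.14, 10.39 and 10.49 in VECTOR cells. Its groups did not overlap either, but its change of 0.26 (SE 0.11) did not pass (adjusted p 0.145). The VECTOR arrays of Ern1 were the more spread.

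Eif2ak3, the kinase that slows translation by phosphorylating eIF2 alpha, was the sensor with the opposite sign. It read 8.92, 9.01 and 9.06 in AC9 cells, below its 9.26, 9.36 and 9.32 in VECTOR cells. The log2 change was -0.32 (SE 0.09, adjusted p 0.0407), a 1.24-fold difference, with an adjusted p of 0.0643 to 0.142 once any 1 array was left out. Mbtps1, the Golgi protease that makes the opening cut in ATF6, had a change of 0.01 with a 95% interval of -0.18 to 0.21. Its AC9 and VECTOR arrays overlapped.

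Of the 9 measured chaperones and co-chaperones, 4 (44.4%) rose and 1 (11.1%) fell, against 8.26% and 9.29% of all genes. With AC9 above, the groups did not overlap for 7 (77.8%), against 17.3% of all genes. With AC9 below, they did not overlap for 1 (11.1%), against 17.7%. The median change of the 9 was 0.33. The mean over the class was 10.05, 10.11 and 10.06 on the AC9 arrays and 9.82, 9.78 and 9.84 on the VECTOR arrays. Hspa5, which encodes BiP, the HSP70 of the ER and the protein that holds the sensors in check, read 13.13, 13.04 and 13.17 in AC9 cells, against 12.51, 12.49 and 12.67 in VECTOR cells. It rose 1.47-fold (log2 change 0.56, SE 0.10, adjusted p 0.00430). Only 44 genes had a higher mean intensity on these arrays, and the highest value of any gene was 13.71.

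Hsp90b1, which encodes GRP94, the HSP90 of the ER, had the larger change of the 2. It read 11.71, 11.84 and 11.74 in AC9 cells, against 11.09, 11.09 and 11.17 in VECTOR cells, and rose 1.57-fold (log2 change 0.65, SE 0.09, adjusted p 0.00138). Left-out arrays moved that change only between 0.61 and 0.68.

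Hyou1, the exchange factor that recharges BiP with ATP, read 10.99, 10.94 and 10.94 in AC9 cells and 10.63, 10.67 and 10.64 in VECTOR cells. Its arrays were among the least spread of the members, and it rose 1.24-fold (log2 change 0.31, SE 0.09, adjusted p 0.0345, or 0.0639 to 0.116 with 1 array left out). Canx, the membrane-bound lectin chaperone, read 10.81, 10.90 and 10.75 in AC9 cells and 10.53, 10.33 and 10.59 in VECTOR cells. It rose 1.27-fold (log2 change 0.34, SE 0.10, adjusted p 0.0487), and with 1 array left out its adjusted p was 0.0490 to 0.146. Calr, the soluble lectin chaperone that works on the same glycoproteins, had a change of -0.01 with a 95% interval of -0.21 to 0.20. Its groups overlapped. The difference between Canx and Calr was not tested.

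The 3 DnaJ genes counted with the chaperones, whose proteins assist BiP, had positive changes, but none passed. Dnajc3 read 7.49, 7.83 and 7.52 in AC9 cells, against 7.13, 7.23 and 7.37 in VECTOR cells, a change of 0.37 (SE 0.12, adjusted p 0.0641). AC9 replicate 2 stood above the other AC9 arrays. Dnajb9 read 10.23, 10.31 and 10.24 in AC9 cells and 10.23, 9.66 and 9.91 in VECTOR cells, a change of 0.33 (SE 0.14, adjusted p 0.137). VECTOR replicate 1 lay just under the lowest AC9 array, and without it the change was 0.48 and passed (adjusted p 0.0298). That was the most favourable case: with 1 array left out, the change ran from 0.20 to 0.48 and the adjusted p from 0.0298 to 0.343. Dnajb11 had a change of 0.11 (adjusted p 0.426), and its groups did not overlap.

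Sdf2l1, which works as a partner of the Dnajb11 protein, was the chaperone that fell. It read 6.88, 6.84 and 6.93 in AC9 cells, against 7.23, 7.38 and 7.15 in VECTOR cells, where every array was the higher. Its log2 change of -0.37 (SE 0.10, adjusted p 0.0273) is a 1.30-fold difference, and the adjusted p was 0.0298 to 0.0864 with 1 array left out.

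**Figure D2:**
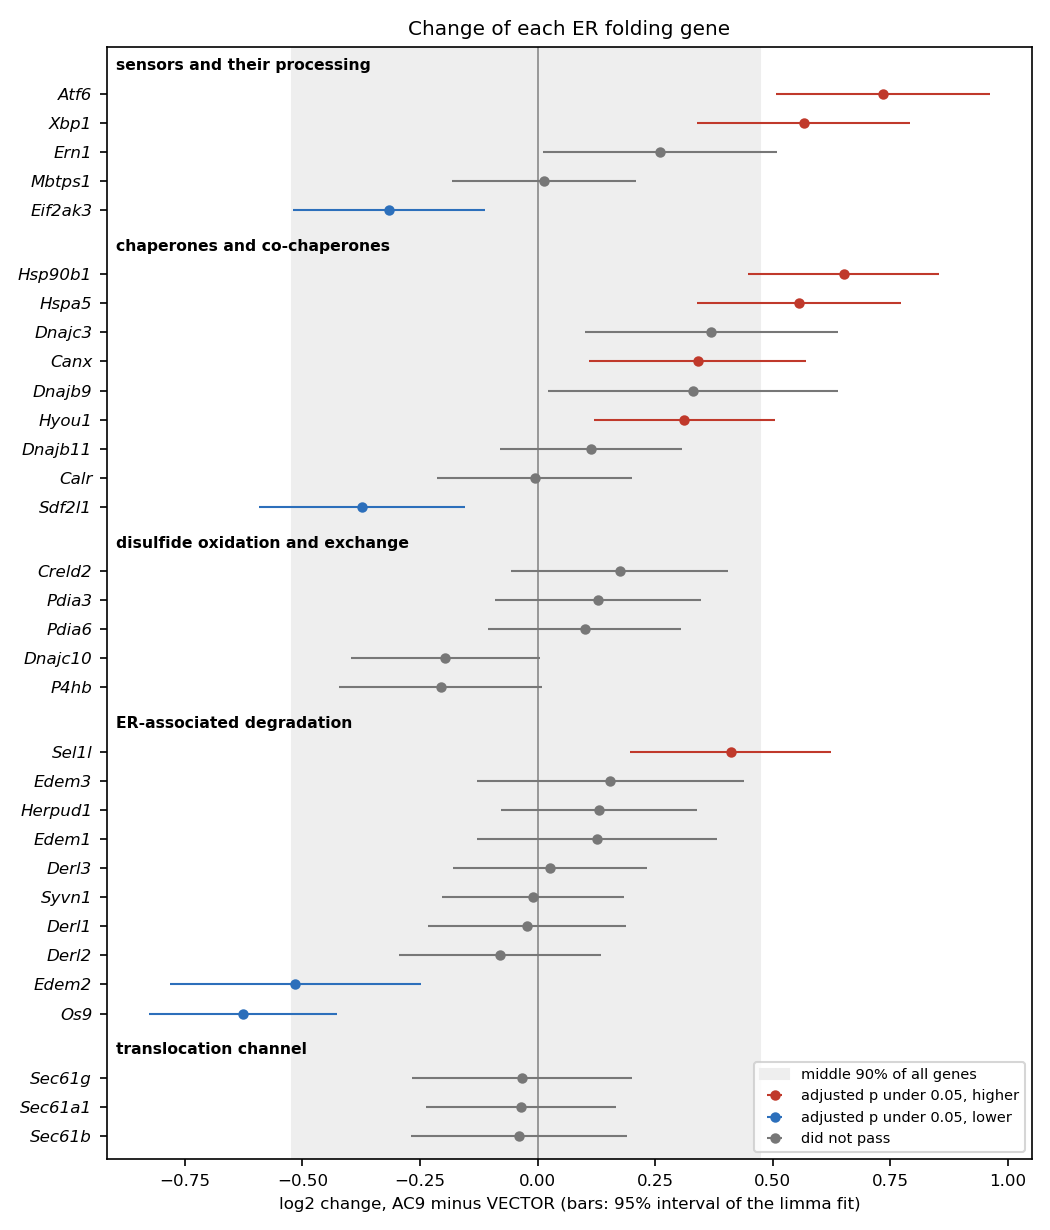
Log2 change of each measured gene, AC9 minus VECTOR (horizontal axis), with the 95% interval of the limma fit; colour marks genes past an adjusted p of 0.05, and the grey band, from -0.52 to 0.47, holds the middle 90% of all genes. Atf6, Xbp1, Hsp90b1 and Hspa5 lie to the right of the band and Os9 to the left, while no disulfide enzyme or channel subunit passed.

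Several of the promoters hold a known element of the ER stress response. It was picked as an element of such genes, so its share among the members is a description and not a test. The ER stress response element (ERSE) consists of CCAAT, bound by NF-Y, and CCACG, bound by ATF6 and XBP1, with 9 bases between. RefSeq promoters (GRCm38.p6, from 250 bases before to 50 after the start of the transcript) were matched for 30 of the 35 listed genes. Searched on both strands, an exact ERSE stood in 9 of those 30 (30.0%) and in 37 of the 27025 genes with a promoter in the table (0.137%). The CCACG box alone, which lies within every ERSE, is common: it was found in 23 of the 30 and in 35.5% of all genes. The related ERSE-II, ATTGG and CCACG with 1 base between, was found in Herpud1 and Dnajb11 and in 0.0444% of all genes. No member's promoter held TGACGTGG, the UPRE (0.714% of all genes), or TGACGTCA, the CRE of cAMP signalling (2.03%). At such low shares, finding none in 30 promoters says little. Only exact letters were searched for, so sites that differ from them were not counted. A match is a description of these letters and was not taken as a bound site.

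The ERSE copies are shown because the same boxes and spacing occur in genes that rose and in genes that did not pass. Each is read 5′ to 3′ in the direction in which CCAAT comes before CCACG, with both boxes in capitals and 8 bases on either side.
Hsp90b1, upper copy, chr10:86705638-86705656: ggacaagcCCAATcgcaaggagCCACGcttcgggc
Hsp90b1, lower copy, chr10:86705533-86705551: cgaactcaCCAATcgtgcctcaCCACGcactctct
Hspa5, chr2:34772025-34772043: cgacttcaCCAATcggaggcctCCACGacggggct
Dnajc3, chr14:118937827-118937845: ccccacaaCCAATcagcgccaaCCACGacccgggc
Canx, chr11:50325800-50325818: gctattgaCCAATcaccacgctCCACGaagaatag
Creld2, chr15:88819520-88819538: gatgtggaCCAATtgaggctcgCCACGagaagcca
Pdia6, chr12:17266491-17266509: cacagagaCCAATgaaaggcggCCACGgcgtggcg
Derl3, chr10:75893242-75893260: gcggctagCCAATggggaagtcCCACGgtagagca
Calr, chr8:84847075-84847093: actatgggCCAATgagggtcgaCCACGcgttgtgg
Syvn1, chr19:6046532-6046550: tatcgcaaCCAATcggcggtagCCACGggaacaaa

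They are listed from the largest change downward, and coordinates cover the element from CCAAT to CCACG. The lower copy of Hsp90b1 and those of Creld2, Derl3 and Calr lie on the strand opposite to the gene. Of these 9 genes, Hsp90b1, Hspa5 and Canx rose and none fell, where 8.26% of all genes rose and 9.29% fell. The call of Canx, at a limma adjusted p of 0.0487, was not firm. The changes of the other six were 0.37 for Dnajc3, 0.17 for Creld2, 0.10 for Pdia6, 0.03 for Derl3, and -0.01 for both Calr and Syvn1. The median over the 9 was 0.17, and it was 0.01 over the 19 measured members whose promoter held no ERSE, of which 2 rose and 4 fell. The difference between these groups was not tested. Atf6, Hyou1, Derl1 and Sec61a1, the first 2 of which rose, had no matched promoter and are in neither group. Neither ERSE-II gene passed, with changes of 0.13 for Herpud1 and 0.11 for Dnajb11. Outside the list, 19 measured genes held an ERSE, of which only 5 had both means above 6.06. Of those 19, 1 was higher and 0 lower by limma: Spats2l, at 0.55 (adjusted p 0.00618), a gene named after its value was seen. Of the other 18, Alg12 shares the element of Creld2, from which it is transcribed in the opposite direction, and had a change of 0.05 (adjusted p 0.796). Ero1b, an oxidase of the ER, had a change of 0.46 (adjusted p 0.0591) with groups that did not overlap, and its VECTOR mean of 5.84 lay below 6.06.

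The whole promoters of the 2 chaperone genes with the largest changes follow, on the gene's own strand, with the ERSE boxes in capitals; those of a copy on the opposite strand read as CGTGG and ATTGG. Counted from the transcript start, the Hspa5 copy lies at -65 to -47, and those of Hsp90b1 lie at -212 to -194 and -107 to -89.
Hspa5, chr2:34771840-34772139, plus strand: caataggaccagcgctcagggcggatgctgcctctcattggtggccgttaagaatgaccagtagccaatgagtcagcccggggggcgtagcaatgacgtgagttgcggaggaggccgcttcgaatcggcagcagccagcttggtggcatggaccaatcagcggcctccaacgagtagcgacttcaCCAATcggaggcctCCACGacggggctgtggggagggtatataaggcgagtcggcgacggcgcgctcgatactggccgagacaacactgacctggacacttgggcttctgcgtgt
Hsp90b1, chr10:86705395-86705694, minus strand: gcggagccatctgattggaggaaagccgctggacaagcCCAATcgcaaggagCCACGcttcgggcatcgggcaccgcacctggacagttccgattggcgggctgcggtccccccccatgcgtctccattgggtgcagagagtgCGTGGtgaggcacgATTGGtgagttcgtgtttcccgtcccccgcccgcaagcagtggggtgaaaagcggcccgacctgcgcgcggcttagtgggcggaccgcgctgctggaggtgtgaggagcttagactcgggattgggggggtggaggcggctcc

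**Figure D3:**
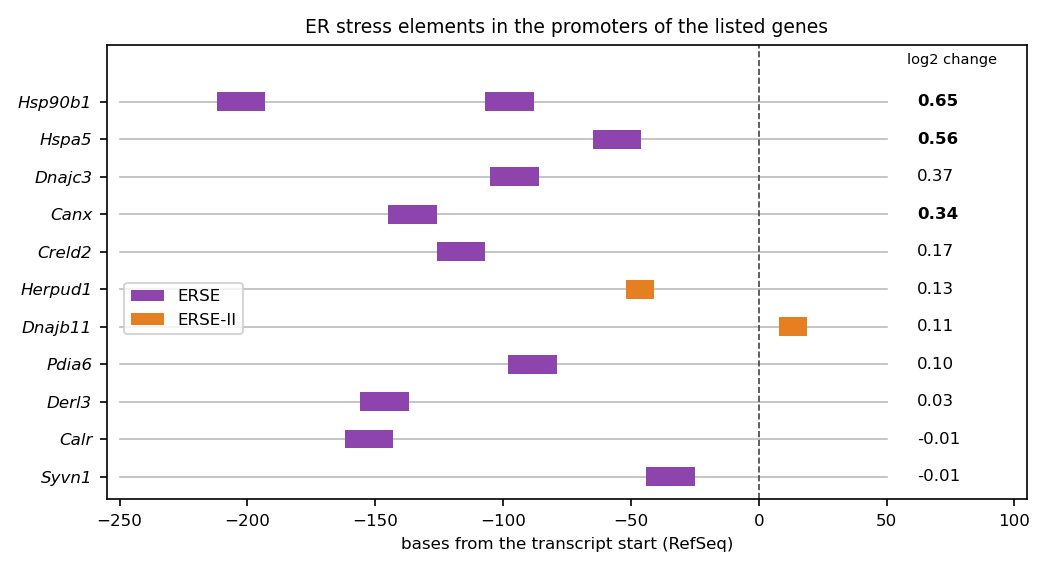
Position of each ERSE and ERSE-II in the promoters of the listed genes, in bases from the transcript start (horizontal axis, dashed line at the start), with the log2 change at the right, in bold where the gene rose. ERSE copies lie between -212 and -26, in genes whose changes run from -0.01 to 0.65.

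Of the enzymes of disulfide formation and exchange, 0 of 5 measured genes passed in limma, where 17.6% of all genes did, and 0 had an unadjusted p under 0.05. With 5 genes that count is near the background, and the difference from the chaperones was not tested. The class mean was 10.50, 10.56 and 10.53 on the AC9 arrays and 10.54, 10.49 and 10.56 on the VECTOR arrays, which overlap. P4hb, the protein disulfide isomerase itself, read 10.34, 10.51 and 10.41 in AC9 cells, against 10.66, 10.69 and 10.53 in VECTOR cells. Its change was -0.21 (95% interval -0.42 to 0.01, adjusted p 0.185), and its groups did not overlap. Dnajc10, the reductase that opens disulfides of proteins bound for degradation, likewise lay lower on every AC9 array, with a change of -0.20 (95% interval -0.40 to 0.00, adjusted p 0.174).

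Pdia3, the isomerase that works with calnexin and calreticulin, had a change of 0.13 (adjusted p 0.428), Pdia6 one of 0.10 (0.522), and Creld2, a stress-induced ER protein, one of 0.17 (0.299). In each of these 3 genes the AC9 and VECTOR arrays overlapped. The upper ends of their 95% intervals were 0.35, 0.31 and 0.40, so a rise of the size seen in Hsp90b1 (0.65) lay outside them. Smaller rises, such as those of Hyou1 (0.31) and Canx (0.34), lay within the intervals of Pdia3 and Creld2.

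In ER-associated degradation, 1 of 10 measured genes (10%) rose and 2 (20%) fell, against 8.26% and 9.29% of all genes. The median change was 0.0083. Os9, a lectin that recognises trimmed glycans on misfolded proteins and hands them to the SEL1L complex, read 8.83, 8.88 and 8.87 in AC9 cells. In VECTOR cells it read 9.41, 9.55 and 9.50, far above every AC9 array. Os9 was 1.54-fold lower (log2 change -0.63, SE 0.09, adjusted p 0.00155), at position 650 of 19505 genes from the largest fall upward.

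Edem2, which starts the trimming of mannose that marks glycoproteins for disposal, read 8.50, 8.90 and 8.69 in AC9 cells, against 9.31, 9.16 and 9.16 in VECTOR cells. The AC9 arrays differed widely among themselves, yet all lay below the VECTOR arrays. Edem2 was 1.43-fold lower (log2 change -0.51, SE 0.12, adjusted p 0.0161, or 0.0106 to 0.0626 with 1 array left out). Its relatives Edem1 and Edem3 had changes of 0.13 and 0.15 (adjusted p 0.512 and 0.466) with overlapping groups. The difference of Edem2 from them was not tested.

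Sel1l, the adaptor that holds the degradation complex together, was the gene of this class that rose. It read 9.42, 9.44 and 9.40 in AC9 cells, against 9.10, 9.05 and 8.88 in VECTOR cells. The rise was 1.33-fold (log2 change 0.41, SE 0.10, adjusted p 0.0163, or 0.0263 to 0.0565 with 1 array left out). Syvn1, the ubiquitin ligase that SEL1L serves, had a change of -0.01 with a 95% interval of -0.20 to 0.18, and Herpud1, which helps assemble the complex, one of 0.13 (-0.08 to 0.34). The derlins Derl1, Derl2 and Derl3, membrane proteins of the exit route, had changes of -0.02, -0.08 and 0.03 (adjusted p 0.637 to 0.906). In all 5 of these genes the groups overlapped.

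The Sec61 subunits, kept apart from the other classes because they form the entry channel, had changes close to 0. Sec61a1, the pore itself, had a change of -0.04 (95% interval -0.24 to 0.17), Sec61b one of -0.04 (-0.27 to 0.19) and Sec61g one of -0.03 (-0.27 to 0.20). Their AC9 and VECTOR arrays overlapped in every case.

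**Figure D4:**
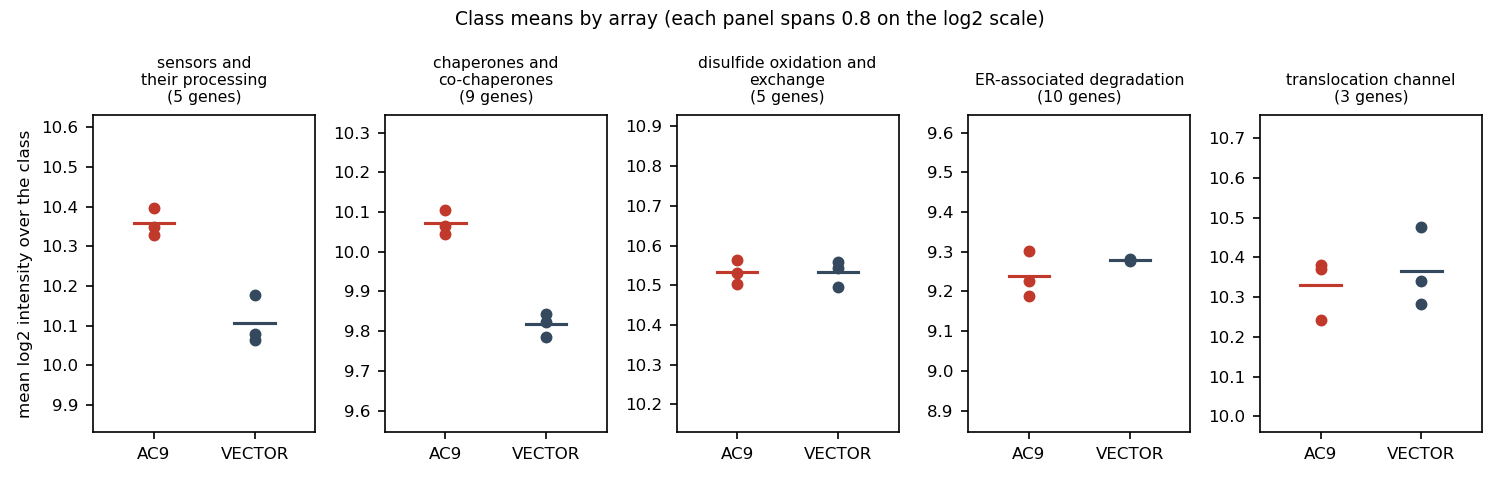
Mean log2 intensity over the measured genes of each class (vertical axis), 1 point per array and a line at the group mean, AC9 left of VECTOR; every panel spans the same range of the log2 scale. The sensor and chaperone means lie higher on all 3 AC9 arrays, at 10.33 to 10.40 and 10.05 to 10.11, against 10.06 to 10.18 and 9.78 to 9.84 in VECTOR cells, and the other classes overlap.

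The array's background probe sets, grouped into 23 classes by GC content, read lower in AC9 cells without overlap in 19 classes and higher in 0, with a largest shift of -0.50 in class 25. The members that fell had changes of -0.32 to -0.63. Sdf2l1, the dimmest of them at 6.88 in AC9 cells and 7.26 in VECTOR cells, lay within the range of the brighter background classes, such as class 20 at 6.86 in AC9 cells and 7.16 in VECTOR cells. The part of the background shift in these falls was not tested.

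Around the members, 165 further genes of the pathway were measured in 6 lists. Of these, 20 (12.1%) were higher and 22 (13.3%) lower, against 8.26% and 9.29% of all genes, with a median change of 0.02. Most were bright, as 150 of the 165 had both means above 6.06. Among the 9916 genes above that bound on every array, 13.3% were higher and 14.9% lower, near the shares of the 6 lists together. How the lists differ from either background was not tested. In stress signalling 3 of 19 rose (15.8%) and 4 fell (21.1%). Nfyb, a subunit of the NF-Y factor that binds CCAAT, rose by 0.60 (SE 0.11, adjusted p 0.00546), reading 10.17, 10.17 and 10.14 in AC9 cells against 9.39, 9.52 and 9.75 in VECTOR cells. The other NF-Y subunits did not pass, Nfya at 0.19 and Nfyc at 0.03. Creb3l1, an ER-membrane factor built like ATF6, changed by -0.57 (adjusted p 0.00608), and Creb3l4 passed as lower, though with AC9 and VECTOR means that were both below 6.06. Atf6b, the paralogue of Atf6, had a change of -0.27 (adjusted p 0.192). Trib3 and Ddit3, genes downstream of PERK that were named after their values were seen, rose by 0.52 (adjusted p 0.00555) and 0.37 (adjusted p 0.0264). Atf4, Ppp1r15a and Ppp1r15b of the same list did not pass, with changes of 0.19, 0.26 and 0.16 (adjusted p 0.218, 0.372 and 0.243). With 1 array left out, Ddit3 kept its call only when that array was VECTOR replicate 1, and it was also lost with a replicate block.

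Among other folding helpers, 3 of 24 rose (12.5%) and 5 fell (20.8%), against 8.26% and 9.29% of all genes. The prolyl isomerases Fkbp11 and Fkbp14 went in opposite directions, at 0.64 (adjusted p 0.00254) and -1.04 (adjusted p 0.00338). Sdf2, the paralogue of Sdf2l1, changed by -0.53 (adjusted p 0.00729), the same direction as Sdf2l1. Sdf2 read 7.30 in AC9 cells and 7.83 in VECTOR cells, within the range of the brighter background classes, such as class 22 at 7.57 and 7.89. Fkbp14 (6.59 and 7.63) and Creb3l1 (6.96 and 7.53) lay within that range too. The part of the background shift in these falls was not tested. In the other genes of oxidation and redox, 2 of 26 rose (7.69%) and 4 fell (15.4%). Ero1a, the oxidase that recharges protein disulfide isomerase, rose by 0.62 (adjusted p 0.00292), and Tmx3, a membrane-bound oxidoreductase, by 0.58 (adjusted p 0.0143, but 0.0595 without AC9 replicate 1). Selenom, a selenoprotein of the ER, changed by -1.19 (SE 0.09, adjusted p 4.40e-05), a 2.29-fold difference and the largest in the 6 lists.

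Of 35 other degradation genes, 4 rose (11.4%) and 5 fell (14.3%), against 8.26% and 9.29% of all genes. Erlin1, a membrane protein of ER degradation, rose by 0.60 (adjusted p 0.00378), Tmub1 changed by -0.97 (adjusted p 0.000177) and the ubiquitin ligase Rnf185 by -0.40. The call of Rnf185 (adjusted p 0.0205) was lost without VECTOR replicate 2 or AC9 replicate 1 or 2. Glycan addition and trimming had 1 of 29 higher (3.45%) and 3 lower (10.3%). Tusc3 and Ost4, subunits of the oligosaccharyltransferase, changed by -0.47 and -0.45 (adjusted p 0.0122 and 0.00975), Tusc3 losing its call without AC9 replicate 3 (0.0517). The dolichol kinase gene Dolk changed by -0.34 (adjusted p 0.0374) and kept its call, with 1 array left out, only when that was VECTOR replicate 3. It was also lost with quantile normalization repeated, with arrays centred on the median of all genes, and with a replicate block.

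In protein targeting and translocation 7 of 32 genes rose (21.9%) and 1 fell (3.1%), with a median of 0.10. Among all genes 8.26% rose and 9.29% fell, and among the 9916 brighter genes 13.3% and 14.9%. The difference from either background was not tested, and 3 of the 7 were the near-identical genes Srp54a, Srp54b and Srp54c. The number higher was 2 without AC9 replicate 1 and 3 without AC9 replicate 2. Sec61a2, the paralogue of Sec61a1, read 10.08, 10.06 and 10.06 in AC9 cells, against 9.11, 8.99 and 9.16 in VECTOR cells, and rose 1.97-fold (log2 change 0.98, adjusted p 0.000154). Srp54c, a copy of the signal recognition particle's GTPase gene, rose by 0.55 (adjusted p 0.0215), but the copies may share its signal, and its call was lost without AC9 replicate 1 or 2. Emc10, of the ER membrane insertase, changed by -0.54 (adjusted p 0.0125, or 0.0513 without AC9 replicate 1).

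**Figure D5:**
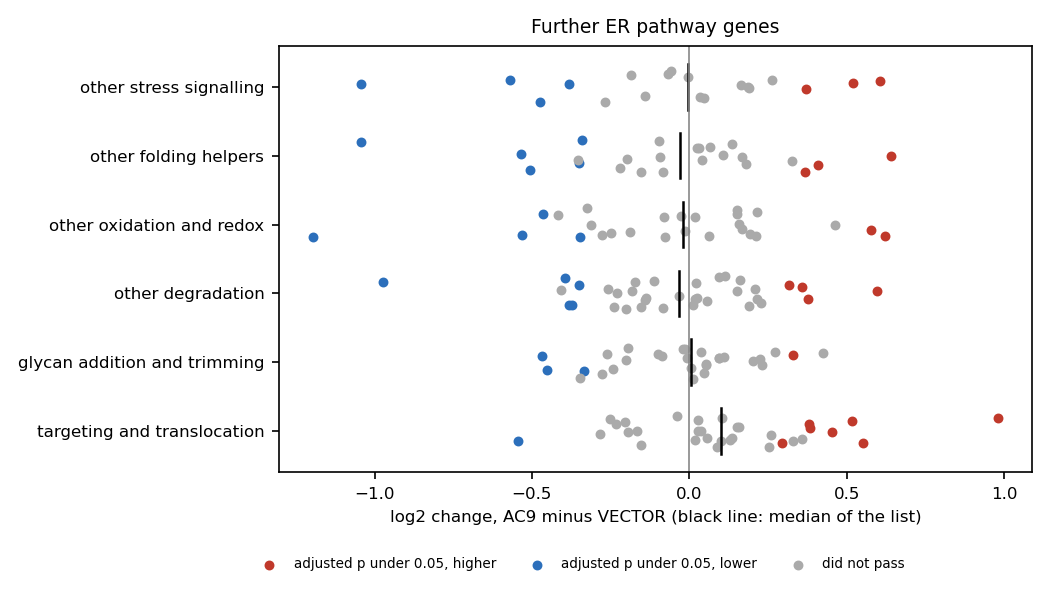
Log2 change, AC9 minus VECTOR (horizontal axis), of 165 further genes of the ER pathway in 6 lists; each point is a gene, coloured where it passed an adjusted p of 0.05, and the black line is the median of the list. Medians run from -0.03 to 0.10, and Sec61a2 is the point farthest to the right at 0.98.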

How the data were processed

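Total RNA from 6 samples was hybridised to Clariom S arrays, 1 per sample, per the labels' protocols. The deposited values are log2 intensities per probe set, made by the authors with RMA per the submitters' processing notes. The sources used here give neither the software version nor the build, so the only coordinates are those of RefSeq promoters.

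The platform annotation gave 19572 probe sets 1 symbol, and the brightest probe set per symbol left 19505 genes. The difference of AC9 from VECTOR was fitted for every gene, with no filter, by lmFit and eBayes (limma 3.58.1, R 4.3.3); tests were two-sided, adjusted by Benjamini-Hochberg over all genes, and the script was checked on simulated data. Intervals are 95% intervals of the fit. All 35 listed genes were to be named, and per further list the 3 largest changes among genes that passed. Members, lists and motifs were chosen with earlier results of these data known. Alternatives were other priors, scalings, probe set rules, array weights, a replicate block and leaving out each array. The number of arrays limits the precision.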

Additional observations from a re-analysis of the deposited data

How the results depend on the processing

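Atf6, Xbp1, Hspa5, Hsp90b1 and Os9 passed under all 15 alternatives at the 0.05 threshold, with adjusted p of at most 0.0227. No member changed sign under a setting where it passed, nor did any that passed in the reported fit. Against 7 members higher, 4 lower and 3424 genes in all, an adjusted p of 0.01 left 4, 1 and 1670. With 1 array left out, members higher numbered 4 to 6, members lower 1 to 3 and all genes 2174 to 3025. Same-numbered samples did not deviate together (correlations of 0.00846, 0.0814 and 0.00764), and differently numbered ones had correlations of -0.0924 to 0.0878. No pairing by number was seen, but 3 arrays per group cannot exclude it. The replicate number as a block left 5 higher and 2 lower members, without the calls of Eif2ak3, Hyou1, Canx and Sdf2l1, and 3062 genes. The trended robust prior gave 10 higher and 6 lower members, adding Ern1, Dnajb9, Dnajc3, P4hb and Dnajc10, and 4674 genes. For the 6 further lists together, with 20 higher and 22 lower, that prior gave 33 and 35, an adjusted p of 0.01 gave 7 and 10, and leaving out 1 array gave 8 to 17 and 11 to 19. Centring each array on the median of all genes lost the call of Eif2ak3 (adjusted p 0.0533) and added Dnajc3 (0.0464), and repeated quantile normalization lost Hyou1 (0.0615) and Canx (0.0735) and added Dnajc3 (0.0340). Canx was also lost under negative-control centring (0.0596) and array weights (0.0507). Centring on the negative controls moves every gene by the same amount per array and cannot correct a shift that varies with GC content. Fewer samples in a fit widen its errors by construction; the cause of the other shifts was not tested. Groups of 3 were not tested for outlying samples. Background classes of high GC content reached the levels of the dimmest members, Sdf2l1, Derl3 and Dnajb11, which limits what their values show. Dnajc3 lay at about these levels too, at 7.61 in AC9 cells and 7.24 in VECTOR cells, where class 23 read 7.58 and 7.95.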
